A study of Mus musculus with 12 samples.

Results

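A set of 7 antimicrobial and granule genes was followed in neonatal mouse skin: Camp, Ltf, Ngp, Lcn2, Pglyrp1, Slpi and Defb1. They were chosen by name as genes for antimicrobial peptides or proteins, with earlier results of these data known. Each was read from every probe set annotated to that symbol alone. This gave 7 genes with 8 probe sets, out of 18193 genes measured. Dermis of C57Bl6/CBA F1 mice was profiled on 12 Affymetrix arrays in 4 groups of 3, which asked how gene expression changes with age and body site: skin labelled tail at postnatal day 5 (P5), skin labelled back at P5, skin labelled tail at P1 and skin labelled back at P1. The labels name no treatment and no engineered allele. For P1 skin, the dermis labelled tail was freed from the epidermis in EDTA and the dermis labelled back in dispase-trypsin, so that site and separation method cannot be told apart, and both were then digested to single cells. The preparation of P5 skin was not described separately.

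Neutrophils carry antimicrobial proteins in granules that are filled in order as the cell matures in bone marrow. The azurophilic granules come first, with myeloperoxidase and elastase; the specific granules follow, with lactoferrin and cathelicidin. Mature neutrophils have largely stopped transcribing these genes, and keratinocytes of the skin make several of the same or related proteins themselves, among them cathelicidin, lipocalin-2, SLPI and the beta-defensins. In bulk dermis, fewer cells of a type and less RNA per cell cannot be told apart.

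The deposited log2 values had been centred on the median of each probe set over the 12 arrays, so a value of 0 is the middle of the 12 arrays for that gene, and neither the level of a gene nor its detection above background can be given. Defining genes could be compared between groups but not used to show that the samples were dermis: the dermal collagen gene Col1a1 passed no test in the 5 comparisons. Other genes of its list did. Of 10 dermal fibroblast genes, 3 were higher and 1 lower for tail minus back at P5, and 2 were higher and 0 lower at P1. For P5 minus P1, 0 were higher and 2 lower in skin labelled back, and 0 passed in skin labelled tail. The site labels were opposed by position-specific genes. Of 14 measured posterior Hox genes, known for expression towards the hind end of the body, 10 were lower in arrays labelled tail at P5 and 10 at P1, not counted as the same 10. Hoxd10 differed by -3.05 at P5 and -3.32 at P1 (tail minus back, log2), and Hoxd11 by -3.28 and -3.09, and every sentence on site below goes by the labels alone. Of 8 measured adipocyte genes, a list added once the data had been seen, 3 were higher in arrays labelled tail at P5 and 7 at P1, with 0 lower at either age, although a fat layer is known under back skin and not in the tail. Replicates 2 and 3 labelled P5 tail stood apart, with an SD over all probe sets of 0.496 and 0.338, against 0.227 to 0.319 on the other 10 arrays. The mean of 10 cartilage genes was 2.46 and 2.06 on replicates 1 and 6 labelled P1 back and 1.02 on replicate 3 labelled P5 back, against 0.15 or less on the other arrays. With replicate 5 as the sole P1 array labelled back, a setting added for this reason, the members called were the same in number in all 5 comparisons. Under it Defb1 differed by 0.43 for P5 minus P1 in skin labelled back and by -1.11 for tail minus back at P1, and Slpi by -0.53 and -0.73, none of them called.

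Of the 7 genes, Defb1 alone passed the test in a comparison, and Slpi came close to it in another. The test was limma's moderated test over all 18193 genes, with an adjusted p under 0.05 as the threshold. For P5 minus P1 in skin labelled tail, 1 of the 7 was higher, where 3.34% of all genes were, and 0 were lower, where 1.96% were. For P5 minus P1 in skin labelled back, 0 of 7 passed, with 2.22% of all genes higher and 2.03% lower. For tail minus back, 0 of 7 passed at P5, with 4.3% of all genes higher and 2.61% lower, and 0 of 7 passed at P1, with 2.06% higher and 1.91% lower. The interaction, which is the age difference in skin labelled tail minus that in skin labelled back, was passed by 0 of 7, with 1.93% of all genes positive and 0.94% negative. At an unadjusted p under 0.05 the members numbered 1 and 2 for age in skin labelled tail and back, 0 and 2 for site at P5 and P1, and 0 for the interaction. Over all 18193 genes the numbers in the same order were 3757 and 2441, 3689 and 2630, and 2615, so such a p was common. The range over the 12 arrays was 2.65 for Defb1, larger than that of 98.5% of genes, and 1.15 for Slpi, whereas Ngp, Lcn2 and Pglyrp1 spanned 0.561, 0.533 and 0.381, each below the median gene's 0.672.

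**Figure D1:**
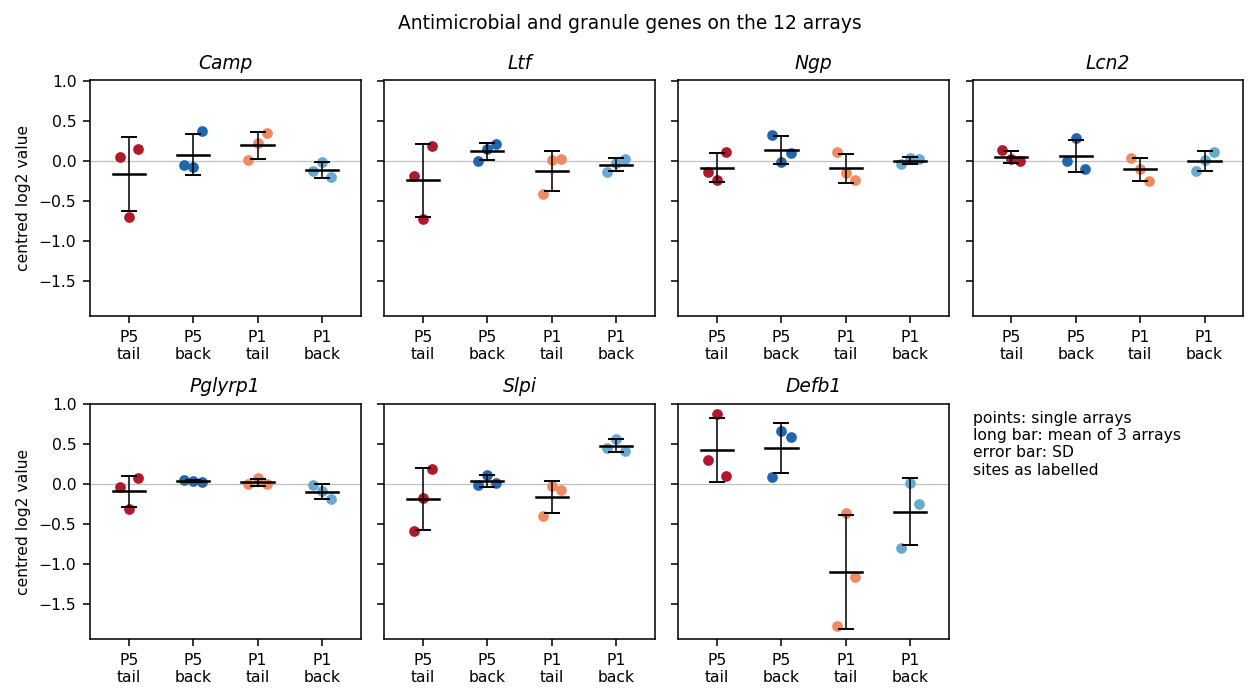
Centred log2 value (vertical axis) of each of the 7 genes on the 12 arrays, by age and labelled site; points are arrays, long bars the mean of 3 arrays and error bars the SD. Defb1 lay between -1.78 and -0.36 in P1 skin labelled tail and above 0 in all P5 arrays, Slpi was highest in the 3 arrays of P1 skin labelled back, and the 5 granule genes lay between -0.73 and 0.37, with Camp and Ltf lowest in 1 array labelled P5 tail.

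The granule genes were looked at first by their promoters, since myeloid transcription of this class of gene is known to use C/EBP factors. RefSeq promoters, from 250 bases before to 50 after the start site, were matched for 6 of the 7 members. The C/EBP-type motif TTNNGCAA, searched on both strands as one of several motifs tried, was found in 4 of these 6, namely Ltf, Ngp, Lcn2 and Slpi, and in 10.8% of all 32851 promoters. These 4 are shown because Cebpa and Cebpb, though not Cebpd, differed between groups, with each match in capitals; Ngp holds 2 matches, starting 138 and 11 bases before the start site, and the others 1 each, 75 bases before it in Ltf, 216 in Lcn2 and 241 in Slpi.
Ltf, GRCm38.p6 chr9:111019042-111019341 (+ strand): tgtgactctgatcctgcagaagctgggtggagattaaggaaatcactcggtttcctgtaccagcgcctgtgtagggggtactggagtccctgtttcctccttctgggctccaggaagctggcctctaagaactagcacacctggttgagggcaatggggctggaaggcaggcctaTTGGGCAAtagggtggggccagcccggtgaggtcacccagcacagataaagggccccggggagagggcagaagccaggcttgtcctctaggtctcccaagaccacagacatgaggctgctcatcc
Ngp, GRCm38.p6 chr9:110419558-110419857 (+ strand): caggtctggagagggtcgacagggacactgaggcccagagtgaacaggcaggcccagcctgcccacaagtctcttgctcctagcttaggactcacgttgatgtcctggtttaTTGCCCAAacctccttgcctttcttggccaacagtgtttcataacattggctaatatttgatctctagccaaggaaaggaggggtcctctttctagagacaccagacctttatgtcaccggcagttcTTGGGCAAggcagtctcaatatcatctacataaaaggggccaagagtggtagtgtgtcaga
Lcn2, GRCm38.p6 chr2:32387690-32387989 (- strand): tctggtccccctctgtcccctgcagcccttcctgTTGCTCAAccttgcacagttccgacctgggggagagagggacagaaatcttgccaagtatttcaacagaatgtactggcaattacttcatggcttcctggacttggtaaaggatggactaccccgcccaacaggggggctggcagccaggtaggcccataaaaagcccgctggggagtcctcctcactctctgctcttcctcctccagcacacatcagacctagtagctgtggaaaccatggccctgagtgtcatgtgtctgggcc
Slpi, GRCm38.p6 chr2:164356458-164356757 (- strand): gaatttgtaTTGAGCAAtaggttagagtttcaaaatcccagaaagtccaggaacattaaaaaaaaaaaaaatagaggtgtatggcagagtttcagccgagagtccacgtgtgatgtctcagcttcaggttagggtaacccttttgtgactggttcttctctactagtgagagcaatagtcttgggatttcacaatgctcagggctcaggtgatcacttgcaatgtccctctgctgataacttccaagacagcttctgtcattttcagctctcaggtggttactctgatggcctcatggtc
A match is a stretch of letters and not a measured site, and the windows of Camp and Pglyrp1 held none. The share of members with a match was not tested against that of all promoters, since the motif was picked from several tried.

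Camp encodes cathelicidin, the precursor of the peptide CRAMP, and was the granule gene with the widest range. Its values in P5 skin labelled tail were 0.05, -0.70 and 0.15, and in P5 skin labelled back -0.06, -0.08 and 0.37. In P1 skin labelled tail they were 0.01, 0.22 and 0.34, against -0.12, -0.01 and -0.21 in P1 skin labelled back. The P1 groups did not overlap, all arrays labelled tail lying above those labelled back, yet the difference of 0.31 (SE 0.20) had an adjusted p of 0.54, and the P5 groups overlapped. The lowest Camp value of the 12 came from replicate 3 labelled P5 tail.

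Ltf encodes lactoferrin, the iron-binding protein of specific granules and of secretions. It read -0.18, -0.73 and 0.18 in P5 skin labelled tail, against -0.0048, 0.14 and 0.21 in P5 skin labelled back. In P1 skin it read -0.41, 0.0048 and 0.02 where labelled tail and -0.14, -0.03 and 0.02 where labelled back. The groups overlapped at both ages, and the largest of its differences, -0.36 for tail minus back at P5 (SE 0.19), had an adjusted p of 0.32; it was -0.57 without replicate 4 labelled P5 tail (adjusted p = 0.0526) and -0.12 without replicate 3 (adjusted p = 0.70). As with Camp, replicate 3 labelled P5 tail held its lowest value.

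Ngp, a neutrophilic granule protein of the cystatin-like family, lay between -0.24 and 0.32 on all arrays. Lcn2, lipocalin-2, which binds bacterial siderophores, lay between -0.25 and 0.28. Pglyrp1, a peptidoglycan recognition protein, lay between -0.31 and 0.08, its lowest value again on replicate 3 labelled P5 tail. The groups overlapped for Ngp and Lcn2 in all 4 comparisons of 2 groups. Pglyrp1 in P5 skin labelled back, at 0.05, 0.04 and 0.02, lay above P1 skin labelled back, at -0.01, -0.09 and -0.19, by 0.13 (SE 0.11, adjusted p = 0.76).

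How far the 5 granule genes could have differed is given by the intervals. In the 4 comparisons of 2 groups their differences ran from -0.36 to 0.31 and the 20 intervals (95%) from -0.79 to 0.74, so that each interval excluded a 2-fold difference on the scale of the array, which has a compressed response for genes near background. The lowest adjusted p among these 20 was 0.32. Their intervals for the interaction reached from -1.16 to 0.47.

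**Figure D2:**
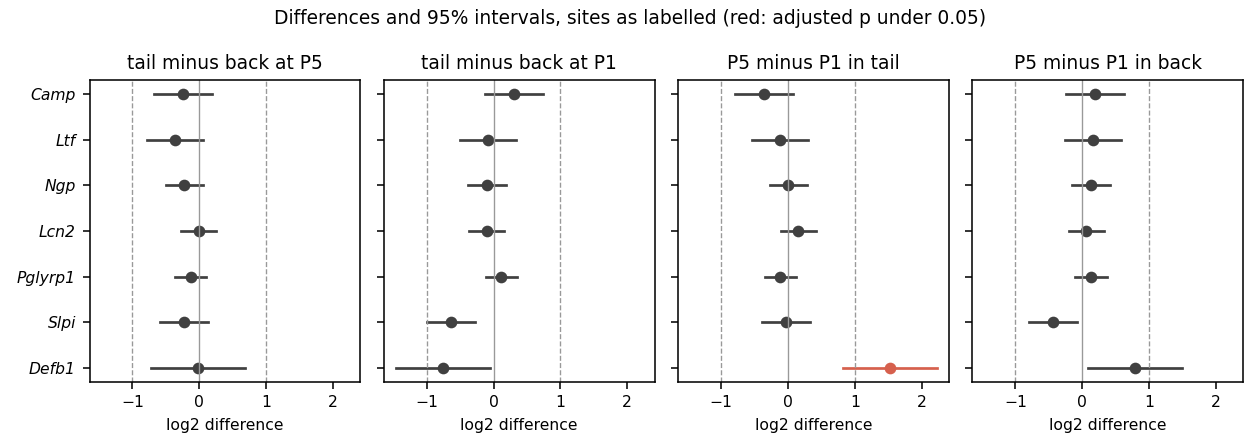
Difference in log2 value (horizontal axis) for the 7 genes in 4 comparisons, sites as labelled, with 95% intervals; red marks an adjusted p under 0.05, the solid line 0 and the dashed lines a 2-fold difference. Defb1 for P5 minus P1 in skin labelled tail, at 1.52, was the red point, and the 5 granule genes lay inside the dashed lines throughout.

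Across the 12 arrays the granule genes did not all run together. Pearson's r was 0.79 for Camp with Pglyrp1, 0.73 for Camp with Ltf and 0.68 for Ltf with Pglyrp1, which is a description over arrays that fall into 4 groups. Without replicate 3 labelled P5 tail these values were 0.49, 0.34 and 0.22 over 11 arrays. Lcn2 had an r of -0.42 with Camp and -0.05 with Ltf over the 12 arrays. The genes most like Camp by r were Fam78b at 0.89, the chemokine gene Ccl9 at 0.87 and Foxd2 at 0.85, followed by Ttf1, Nsl1 and Rimkla, and in all 6 the same array, replicate 3 labelled P5 tail, was lowest.

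Defb1, the epithelial beta-defensin 1, was the member that changed with age. In P5 skin labelled tail its values were 0.30, 0.87 and 0.10, against -1.78, -0.36 and -1.16 in P1 skin labelled tail, and every P5 array lay above every P1 array. The means were 0.42 ± 0.40 at P5 and -1.10 ± 0.71 at P1 (SD, n = 3 each), a difference of 1.52 (SE 0.32, 95% interval 0.82 to 2.22) or 2.87-fold higher at P5, with a limma adjusted p of 0.0168. In P5 skin labelled back the values were 0.09, 0.66 and 0.59, against -0.80, 0.02 and -0.24 in P1 skin labelled back. These groups did not overlap either, and the difference was 0.79 (95% interval 0.09 to 1.49) with an adjusted p of 0.28. The age difference was not shown to differ between the labelled sites, since the interaction was 0.73 (95% interval -0.26 to 1.73, adjusted p = 0.52). Between sites, Defb1 differed by -0.02 at P5 (95% interval -0.72 to 0.68), and by -0.75 at P1 (95% interval -1.46 to -0.05, adjusted p = 0.30), where replicate 5 labelled tail lay among the arrays labelled back. Without replicate 4 labelled P1 tail the P1 site difference was -0.42 and the interaction 0.39, and without replicate 5 labelled P1 tail they were -1.12 and 1.10, with adjusted p-values from 0.0518 to 0.754 over these 4 values.

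The 2 probe sets of Defb1 gave the age difference in skin labelled tail as 1.62 and 1.43, with adjusted p-values of 0.0164 and 0.0298 over all probe sets, the second being of a kind that can match related sequences. The call rested on few arrays. It was lost without replicate 4 labelled P1 tail, the lowest of the 12 (difference 1.18, adjusted p = 0.0684), and without replicate 6 labelled P1 tail (1.49, 0.0607). With replicate 4 as the sole P5 array labelled tail, a setting added once the data had been seen, the difference was 1.20 with an adjusted p of 0.143. Over 20 alternatives the difference ran from 1.18 to 1.89 and the adjusted p from 0.00332 to 0.143, and 15 of them kept the call. The other alternatives that lost it were array weights (1.60, adjusted p = 0.0546) and a fit of those 6 arrays alone (1.52, adjusted p = 0.0642). Of the 20 alternatives, 12 left out 1 array each, and 10 of these kept the call. Leaving out an array labelled back cannot change this difference and acts through the shared spread alone.

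The genes most like Defb1 over the 12 arrays were Blnk at r = 0.95, an adaptor of B cell receptor signalling, and Krtap6-2 at 0.94, a keratin-associated protein of the hair shaft, then Nav2, Crybg2, Fndc7 and Dusp2. Krtap6-2 was higher at P5 than at P1 by 2.99 in skin labelled tail (adjusted p = 0.00679) and by 2.40 in skin labelled back (adjusted p = 0.025). Blnk was higher at P5 by 1.05 in skin labelled tail (adjusted p = 0.0327). Some keratinocyte genes also differed with age. Of 13 measured genes of basal and suprabasal keratinocytes, 4 were higher and 0 lower at P5 in skin labelled tail, with a median difference of 0.44 against 0.04 over all genes, and 0 were higher and 8 lower at P5 in skin labelled back, with a median of -0.68 against 0.01. Of 13 cornified keratinocyte genes, 2 were higher and 0 lower at P5 in skin labelled tail, and 1 was higher and 6 were lower at P5 in skin labelled back. On replicates 4, 5 and 6 labelled P1 tail, the basal and suprabasal mean was -0.82, -0.04 and -0.41. The cornified mean was -1.64, 0.41 and -0.38 on these arrays, and Defb1 followed the same order. Both means were highest in P1 skin labelled back, where Defb1 lay below all its P5 values. The basal and suprabasal mean of that group held the keratin gene Krt2 at 5.32 to 5.66, and no mean without Krt2 was taken. The part of epidermal RNA in the Defb1 difference was not tested.

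Slpi, the secretory leukocyte protease inhibitor, blocks neutrophil elastase and is made by epithelia. Its values were -0.58, -0.17 and 0.19 in P5 skin labelled tail and -0.01, 0.12 and 0.01 in P5 skin labelled back. They were -0.40, -0.02 and -0.08 in P1 skin labelled tail, against 0.45, 0.57 and 0.41 in P1 skin labelled back. The 3 arrays of P1 skin labelled back were thus the highest of the 12, with no overlap with any other group. Tail minus back at P1 was -0.64 (SE 0.17, 95% interval -1.003 to -0.28), 1.56-fold, and its adjusted p of 0.0521 missed the threshold. P5 minus P1 in skin labelled back was -0.44 (95% interval -0.80 to -0.08, adjusted p = 0.23), and P5 minus P1 in skin labelled tail was -0.02 (95% interval -0.38 to 0.34).

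The Slpi difference at P1 crossed the threshold in 5 of 20 alternatives, in which it ran from -0.73 to -0.53 with adjusted p-values from 0.000725 to 0.423. Leaving out a P5 array changed the call at P1, because all groups share 1 estimate of the spread: the adjusted p was 0.0103 without replicate 2 labelled P5 tail and 0.0152 without replicate 4. With only the 6 P1 arrays in the fit it was 0.0224, and 0.000725 with arrays weighted by their scatter. The age difference of Slpi in skin labelled back reached an adjusted p of 0.0124 with the arrays of those groups alone, within a range of 0.0117 to 0.856 over its alternatives, of which 3 of 20 passed.

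Some epidermal genes stood high in the same 3 arrays as Slpi. The mean of 13 cornified keratinocyte genes lay between 0.76 and 1.29 in P1 skin labelled back, against -0.09 to 0.48 in P5 skin labelled tail, -1.03 to -0.50 in P5 skin labelled back and -1.64 to 0.41 in P1 skin labelled tail. For tail minus back at P1, 4 of the 13 were lower and 1 was higher, with a median of -0.82. Krt16, a keratin of activated epidermis, differed by -4.18 for tail minus back at P1 (adjusted p = 2.7e-05), and Krt6b, of the same kind, by -3.80 (adjusted p = 0.000129). Sprr1b, a cornified envelope precursor, differed by -4.74 (adjusted p = 0.00452). The gene that was higher was Sprr1a, of the same family, by 0.67 (adjusted p = 0.0323), its 3 arrays of P1 skin labelled back being the lowest of the 12. Lor, Flg and Krt6a did not pass, at -1.95, -0.61 and 0.45. The mean of 13 basal and suprabasal genes lay between 0.58 and 0.80 in P1 skin labelled back, above the highest array of the other groups at 0.18. Of the 13, 3 were lower and 0 higher for tail minus back at P1, with a median of -0.59. Krt2, a keratin gene of this list, weighed heavily on the mean. In skin labelled back, Krt2 read 5.32, 5.66 and 5.64 at P1 and 1.56, 2.86 and 2.67 at P5. In skin labelled tail it read -2.50, -1.77 and -1.82 at P1 and -1.56, -1.56 and -1.68 at P5. It was thus higher in arrays labelled back at both ages. The mean without Krt2 was not taken, so a high mean in P1 skin labelled back is not shown for the other genes. Of these, Krt1 and Krt10 were highest on the 3 arrays of P1 skin labelled back. Krt14 and Krt15 were highest on the 3 arrays of P5 skin labelled tail instead. The mean of 8 mast cell genes was likewise highest in P1 skin labelled back, at 0.41 to 0.70, against 0.33 on the highest other array. The part of these cells in the Slpi difference was not tested.

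The genes whose pattern was most like that of Slpi were Oit1 at r = 0.94, Cabcoco1 at 0.94 and Cdh8 at 0.92, then Gm13483, Afmid and 1700093K21Rik. None of these 6 passed the test in any of the 5 comparisons. All of the correlations were taken over the same 12 arrays, which share a normalisation.

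Other neutrophil genes gave the setting for the granule members. Of 34 listed, 27 were measured, and the azurophilic granule genes, 5 of them measured, passed no test in any comparison; Mpo ran from -0.29 to 0.36 and Elane from -0.43 to 0.28 over the 12 arrays. Of 9 measured genes of specific and gelatinase granules that are not members, Hp alone passed. Hp encodes haptoglobin, which binds free haemoglobin and is also made by liver and fat, and 7 of 8 adipocyte genes were higher in the same direction for tail minus back at P1, a part in Hp that was not tested. It read 2.27, 1.94 and 1.67 in P1 skin labelled tail, against -0.98, -1.11 and -1.41 in P1 skin labelled back, a difference of 3.13 (adjusted p = 1.19e-05), and P5 minus P1 in skin labelled tail was -1.57 (adjusted p = 0.00198). Its interaction was -2.40 (adjusted p = 0.00244).

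Of 13 genes of the neutrophil surface and cytoplasm, 0 passed for tail minus back at P5, 3 were lower for tail minus back at P1, 1 was higher at P5 in skin labelled tail, and 1 was higher and 2 were lower at P5 in skin labelled back. Padi4, which citrullinates histones, was higher at P5 by 0.86 in skin labelled tail (adjusted p = 0.0221) and by 1.15 in skin labelled back (adjusted p = 0.00427). Stfa2l1, a stefin of the cysteine protease inhibitors, read 0.21, -0.03 and -0.91 in P5 skin labelled tail and -1.33, -0.70 and -0.46 in P5 skin labelled back. It read -1.02, 1.86 and 0.03 in P1 skin labelled tail, against 2.24, 3.08 and 2.98 in P1 skin labelled back. Like Slpi, it was highest in all 3 arrays of P1 skin labelled back, and it differed by -2.48 for tail minus back at P1 (adjusted p = 0.0244) and by -3.60 for P5 minus P1 in skin labelled back (adjusted p = 0.00256). The mean of the cornified keratinocyte genes was highest in the same 3 arrays, at 0.76 to 1.29. A part of keratinocytes in the Stfa2l1 values was not tested. Il1b, the cytokine interleukin-1 beta, differed by -0.52 in both of these comparisons (adjusted p = 0.0165 and 0.0155), and Clec4d, a myeloid lectin receptor, by -0.80 for tail minus back at P1 (adjusted p = 0.048).

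The calgranulin genes S100a8 and S100a9, whose proteins are the most abundant of the neutrophil cytosol and are also made by keratinocytes, passed no test, and neither did Csf3r, the receptor that drives neutrophil production. S100a8 read 1.05, 0.32 and -0.06 in P5 skin labelled tail and 0.22, 0.79 and 0.66 in P5 skin labelled back, against -0.34, -0.23 and 0.0005 in P1 skin labelled tail and -0.11, -0.0005 and -0.27 in P1 skin labelled back. The S100a8 ages did not overlap in skin labelled back. S100a9 read -0.56, -0.21 and -0.31 in P5 skin labelled tail, against -0.09, 0.21 and 0.09 in P1 skin labelled tail, also without overlap, while its ages overlapped in skin labelled back. Csf3r ran from -0.30 to 0.23 over the 12 arrays. The list mean of the 13 genes lay between 0.19 and 0.37 in P1 skin labelled back, against -0.05 to 0.0012 in P5 skin labelled tail, -0.06 to 0.12 in P5 skin labelled back and -0.21 to 0.04 in P1 skin labelled tail. Without Stfa2l1 the mean of the other 12 genes lay between 0.0064 and 0.15 in P1 skin labelled back, overlapping P5 skin labelled back at 0.04 to 0.19. Ly6g was not measured by a probe set of its own.

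**Figure D3:**
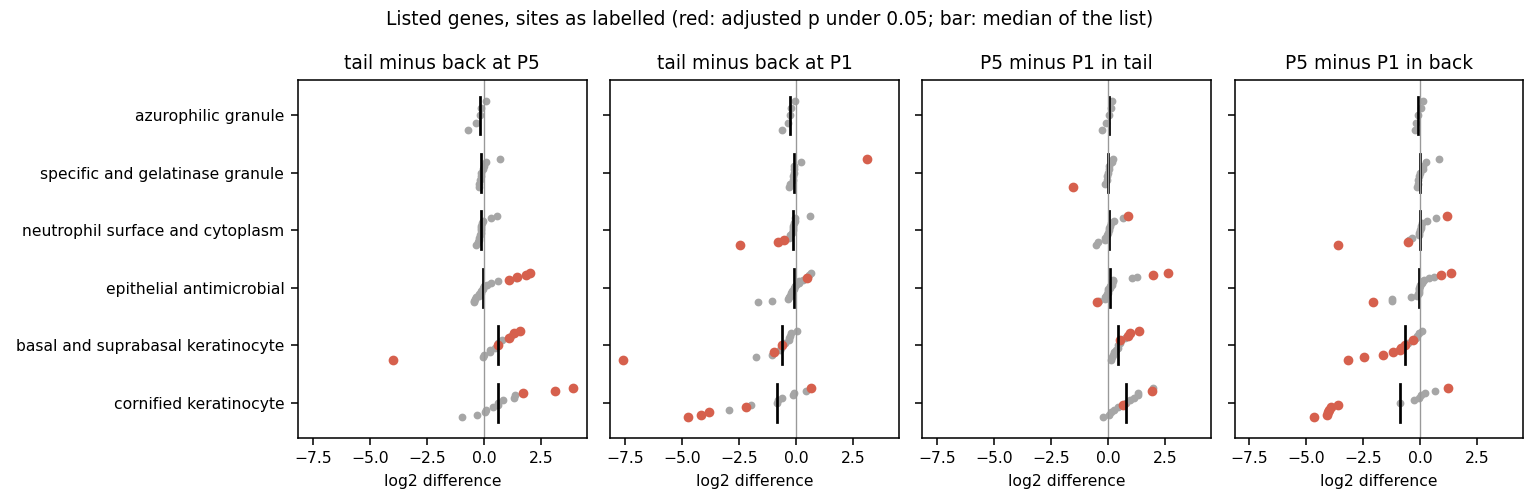
Difference in log2 value (horizontal axis) of the measured genes of 6 lists in 4 comparisons, sites as labelled; each point is a gene, red marks an adjusted p under 0.05 and the black bar is the median of the list. The neutrophil lists centred near 0, with Hp and Stfa2l1 as the farthest points, whereas keratinocyte genes spread to -7.57.

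Several transcription factors that act on granule genes during granulocyte maturation differed between the groups, 4 of them between sites at P5. Of 6 measured, 3 were higher and 1 was lower for tail minus back at P5, and 2 were higher and 1 lower for P5 minus P1 in skin labelled tail. Cebpa, which commits myeloid progenitors and is also active in epidermis and fat, read 0.86, 0.63 and 0.56 in P5 skin labelled tail, against -0.53, -0.51 and -0.51 in P5 skin labelled back. The difference was 1.20 (adjusted p = 2.75e-05), and Cebpb was higher by 0.58 (adjusted p = 0.0189) and Runx1 by 0.45 (adjusted p = 0.0116). Gfi1, a repressor needed for neutrophil differentiation, differed by -0.83 for tail minus back at P5 (adjusted p = 0.0308) and by -1.10 for P5 minus P1 in skin labelled tail (adjusted p = 0.00878). For the same P5 comparison Ltf, Ngp, Lcn2 and Slpi differed by -0.36, -0.22, -0.01 and -0.23, with adjusted p-values of 0.32, 0.37, 0.98 and 0.49. Spi1, the gene of PU.1, and Cebpd passed no test in any comparison.

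Several other antimicrobial genes of epithelia passed the test. Of 19 measured, 4 were higher and 0 lower for tail minus back at P5, 1 was higher for tail minus back at P1, 2 were higher and 1 lower for P5 minus P1 in skin labelled tail, and the same numbers were called for P5 minus P1 in skin labelled back. The medians stayed near those of all genes, at -0.02, -0.07, 0.07 and -0.05 against -0.02, -0.04, 0.04 and 0.01. For tail minus back at P5, 4 of 13 basal and suprabasal keratinocyte genes were higher and 1 was lower, 3 of 13 cornified genes were higher and 0 lower, each list with a median of 0.62, and 6 of 8 mast cell genes were lower. Their part in the values of the epithelial genes and of Cebpa and Cebpb was not tested. Defb6, another beta-defensin, read 2.49, 2.71 and 1.78 in P5 skin labelled tail and 0.20, 0.51 and 0.75 in P5 skin labelled back. It read -0.30, -0.37 and -0.20 in P1 skin labelled tail and -0.28, -0.29 and -0.63 in P1 skin labelled back. The age groups did not overlap at either labelled site, and the difference for P5 minus P1 was 2.62 in skin labelled tail (adjusted p = 4.84e-05) and 0.89 in skin labelled back (adjusted p = 0.0319). The interaction was 1.73 (adjusted p = 0.00816), and tail minus back at P5 was 1.84 (adjusted p = 0.000214).

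Wfdc18, of the same whey acidic protein domain family as Slpi, read 1.64, 1.80 and 1.22 in P5 skin labelled tail and 0.21, 0.75 and 0.45 in P5 skin labelled back. It read -0.59, -0.39 and -0.21 in P1 skin labelled tail and -1.30, -0.69 and -0.65 in P1 skin labelled back. It was higher at P5 by 1.95 in skin labelled tail (adjusted p = 0.000182) and by 1.35 in skin labelled back (adjusted p = 0.00215), where Slpi differed by -0.02 and -0.44 without passing. Wfdc21, a further gene of that family, was higher by 2.03 for tail minus back at P5 (adjusted p = 0.0149), as was Pla2g2f, a secreted phospholipase of epidermis, by 1.45 (adjusted p = 0.0255). Wfdc5, also of that family, differed by -2.06 for P5 minus P1 in skin labelled back (adjusted p = 0.0257). Lyz1, a lysozyme gene, was higher by 0.48 for tail minus back at P1 (adjusted p = 0.0268) and differed by -0.47 for P5 minus P1 in skin labelled tail (adjusted p = 0.0262). Of 12 monocyte and macrophage genes, 1 was higher and 0 were lower for tail minus back at P1. At P5, 0 were higher and 3 lower for tail minus back, with a median of -0.32. For P5 minus P1, 0 were higher and 4 lower in skin labelled tail, and 0 passed in skin labelled back. The interaction was positive for 0 and negative for 3.

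**Figure D4:**
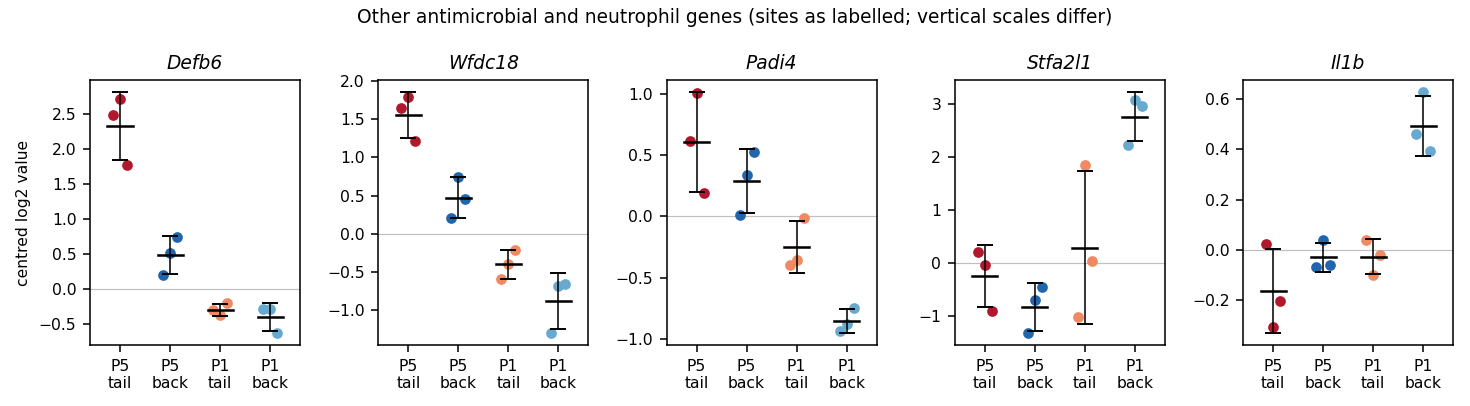
Centred log2 value (vertical axes, which differ in scale) of 5 listed genes on the 12 arrays by age and labelled site; points are arrays, long bars means of 3 arrays and error bars the SD. Defb6 and Wfdc18 were highest in P5 skin labelled tail, and Stfa2l1 and Il1b in P1 skin labelled back.

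Receptors known for the members showed 1 change. Of 6 measured, P2rx7, an ATP-gated channel through which cathelicidin peptides are known to act on human monocytes, read 0.66, 0.47 and 0.10 in P5 skin labelled tail and 0.08, 0.03 and 0.04 in P5 skin labelled back. It read -0.02, 0.03 and -0.20 in P1 skin labelled tail, against -0.59, -0.80 and -0.77 in P1 skin labelled back, where it was lowest. Tail minus back at P1 was 0.66 (adjusted p = 0.014), and P5 minus P1 in skin labelled back was 0.77 (adjusted p = 0.00537). The lipocalin-2 receptor genes Slc22a17 and Lrp2, the lactoferrin receptor Lrp1, and Ccr6, bound by beta-defensins, passed no test.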

How the data were processed

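The authors hybridised amplified cDNA of dermis from triplicate mice to Affymetrix MG430.2A arrays and deposited RMA values from GeneSpring on a log2 scale, which the files do not state. Every probe set had a median of 0 over the 12 arrays. Of 45101 probe sets, 64 controls were left out, and 34945 of the 45037 tested carry 1 gene symbol in the platform annotation, 932 several and 9160 none. Probe sets of a gene were averaged, which gave 18193 genes, 34741 probe sets being matched to RefSeq by gene ID. limma 3.58.1 (R 4.3.3) was fitted to the 4 groups with eBayes and Benjamini-Hochberg adjustment over all genes, and tested on simulated data. RNA came from triplicate mice, and precision is limited by having 3 arrays per group. The members and the 14 lists (146 of 164 other genes measured) were chosen with earlier results of these data known, and 10 adipocyte genes were added later. Named are all 7 members, up to 4 called genes of a list with the largest differences per comparison, defining genes of each cell type and the 6 genes most like Camp, Defb1 or Slpi. No filter on dim probe sets could be set, since centring removed the levels; the exclusion of the dimmest genes that the methods describe could not be repeated. Alternatives were centring each array, robust eBayes, array weights, the replicate block, the groups compared alone, no probe sets of shared sequence, probe sets singly, and leaving out arrays.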

Additional observations from a re-analysis of the deposited data

How the results depend on the processing

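The setting without probe sets of shared sequence left out the 1 probe set of Lcn2 and so held no value for it. The counts of members called kept their side of the threshold in that setting and with probe sets taken singly. These counts also kept it when each array was centred on its median and under robust eBayes. For site at P1 they were 3 with array weights (Camp, Defb1 and Slpi), 1 with the 2 groups alone and 1 with replicate 4 as the sole P5 array labelled tail. For age in skin labelled tail they were 0 under each of these 3 settings, and for age in skin labelled back 1 (Slpi). Leaving out 1 array gave 0 to 1 member for site at P1 and for age in skin labelled tail, and 0 in the other comparisons. Over all genes, array weights called 662 and 3650 for site at P5 and P1 and 433 and 2136 for age in skin labelled tail and back, against 1257, 722, 964 and 773. The groups alone called 713 for site at P5, and 315 and 1526 for age. Replicate 4 as the sole P5 array labelled tail called 829 and 1347 for site at P5 and P1 and 1290 for age in skin labelled back. Replicate 5 as the sole P1 array labelled back called 121 for site at P1, 585 and 61 for age in skin labelled tail and back, and 99 interactions, against 522. Leaving out 1 array gave 737 to 2136 and 385 to 1038 genes for site at P5 and P1, 472 to 1685 and 379 to 1128 for age in skin labelled tail and back, and 239 to 731 interactions. The cause of these shifts was not tested.

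Replicate numbers were shared between groups, but same-numbered arrays had correlations of their deviations from -0.04 to 0.26, so the numbers were not taken as pairs. With the replicate block 377 and 285 genes were called for age in skin labelled tail and back, and no member's call changed. Signs turned for Defb1 in site at P5 (0.025) and Lcn2 in age in skin labelled back (-0.0029). For age in skin labelled tail, Ltf went from -0.12 to 0.22 and Slpi from -0.02 to 0.27.

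Directions of uncalled members also turned elsewhere. For site at P5, Lcn2 was 0.0031 with arrays centred, and Defb1 0.037 with array weights and 0.072 without shared probe sets. With replicate 4 as the sole P5 array labelled tail, site at P5 was 0.068 for Camp, 0.063 for Ltf, 0.15 for Slpi and 0.037 for Pglyrp1, age in skin labelled tail 0.31 for Ltf, 0.36 for Slpi and 0.051 for Pglyrp1, and the interaction 0.14 for Ltf and 0.078 for Ngp. Slpi was 0.0081 for age in skin labelled tail with array weights. Leaving out 1 array, site at P5 ran from -0.40 to 0.019 for Camp, -0.25 to 0.14 for Defb1 and -0.087 to 0.10 for Lcn2, site at P1 from -0.15 to 0.062 for Ltf, age in skin labelled tail from -0.33 to 0.12 for Ltf, -0.093 to 0.11 for Ngp and -0.21 to 0.17 for Slpi, and age in skin labelled back from -0.049 to 0.14 for Lcn2.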
